A study of Arabidopsis thaliana with 24 samples.

Results

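AT5G38160, AT5G38170 and AT5G38180 are 3 neighbouring genes of the lipid transfer protein superfamily on chromosome 5 of Arabidopsis thaliana. They were chosen by their measured signals, as genes among the steepest changes of this series, and by having a probe set that the annotation ties to 1 gene. That gave 3 genes of the 13355 genes that the array reads with a probe set of their own. Their probe sets are 249547_at, 249548_at and 249549_at in the same order. Because the stage-to-stage differences chose them, their levels and differences are given here as a description, without p-values. Where one of them is said to meet a call threshold, this only applies to it the rule used for all probe sets, restates the choice of the genes and is no test. Comparisons that have a group in common share its arrays.

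The samples came from the accession Col-0, with 24 Affymetrix ATH1 arrays in 8 groups of 3. Whole siliques, that is the fruit wall together with the seeds it encloses, were sampled at stages 3, 4 and 5. Seeds freed from the silique were sampled at stages 6, 7, 8, 9 and 10. The labels name no treatment, no mutant and no days, give growth conditions (soil, long days) for siliques stage 3 alone. They leave unsaid whether arrays of a group are different plants, and every p-value below therefore reflects array-to-array spread that could be purely technical.

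Lipid transfer proteins are small secreted proteins whose conserved cysteines form disulfide bridges around a cavity that can hold a lipid chain. They are known for carrying lipids to cutin, suberin and wax layers at plant surfaces and for roles in defence. The same fold is shared by the 2S albumins, storage proteins of the seed, and by enzyme inhibitors of cereal grains. What the proteins of AT5G38160, AT5G38170 and AT5G38180 do is not known well enough to be stated here.

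In the reference gene table no other annotated gene lies between AT5G38160 and AT5G38170 or between AT5G38170 and AT5G38180. The table's assembly is TAIR10.1, and since the deposited values name no build, no coordinates are given. A further gene of the family, AT5G38195, follows AT5G38180 with 2 annotated genes in between. All 3 probe sets carry the plain suffix that the maker gave to sets designed against 1 transcript. Whether a probe of one tandem gene also reads the transcript of its neighbour was not tested, and levels of different probe sets are not compared with each other.

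All 3 genes had low signals in siliques stage 3, strong ones in siliques stage 4, and lower ones again in the last seed stages. They differed in when the signal was highest and in how far it came down. AT5G38160 and AT5G38170 were highest in seeds stage 7 and by seeds stage 10 retained 29.1% and 20.2% of that level. AT5G38180 was highest in siliques stage 4, and 8.75% of that level was left by seeds stage 8 and 1.12% by stage 10. Signals are MAS5 intensities in arbitrary units, and in bulk samples such as these fewer cells of a type and less RNA per cell cannot be told apart.

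For AT5G38160 the 3 arrays of siliques stage 3 read 15.4, 8.90 and 10.0, between the 23.6th and the 29.8th percentile of their array. The arrays of siliques stage 4 read 3087, 2920 and 3048. Those of siliques stage 5 read 3668, 3672 and 3560. The 2 later silique groups thus stood far above stage 3 and did not overlap each other. The seeds read 4490, 4104 and 4603 at stage 6 and 5069, 4569 and 4113 at stage 7, so that these groups overlapped. At stage 8 the signals were 3523, 3201 and 3197. They were 2263, 2401 and 2339 at stage 9 and 1396, 1371 and 1236 at stage 10, each group lying below the one before it. The group mean was 11.4 ± 3.47 (SD, n = 3) at the start in siliques stage 3. It was 4584 ± 479 at the highest stage, seeds stage 7, and 1335 ± 86.0 at the end.

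AT5G38170 followed nearly the same course. It read 14.3, 13.5 and 12.3 in siliques stage 3, between the 27.4th and the 30.3rd percentile of the array. Siliques stage 4 read 3640, 3560 and 4132, and siliques stage 5 read 4206, 4264 and 3970. These last 2 groups overlapped. Seeds stage 6 gave 5062, 4548 and 4901 and seeds stage 7 gave 5507, 5183 and 4691, again with overlap. From there the signal came down without overlap between neighbouring stages, to 3134, 3117 and 3142 at stage 8, to 1688, 1746 and 1803 at stage 9 and to 1013, 997 and 1097 at stage 10. Its mean was 13.4 ± 1.03 (SD, n = 3) at the start, 5127 ± 411 at the highest stage and 1036 ± 54.1 at the end.

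AT5G38180 reached its highest level earlier. Siliques stage 3 read 0.565, 6.47 and 7.34, at or below the 19.4th percentile of the array, and siliques stage 4 read 1300, 951 and 946. Siliques stage 5 gave 626, 782 and 679, which lay below all 3 arrays of stage 4. Seeds stage 6, at 672, 699 and 734, overlapped siliques stage 5. Seeds stage 7 read 601, 490 and 534, at 50.8% of the highest group mean. The large drop came next, with 109, 78.6 and 92.0 at stage 8, 26.3, 35.4 and 23.6 at stage 9, and 19.3, 14.6 and 1.74 at stage 10. Seeds stage 10 overlapped siliques stage 3 through 1 array, replicate D, which lay far below the other 2. Its mean was 1065 ± 203 (SD, n = 3) at the highest stage, 93.3 ± 15.3 by seeds stage 8 and 11.9 ± 9.11 at the end.

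**Figure D1:**
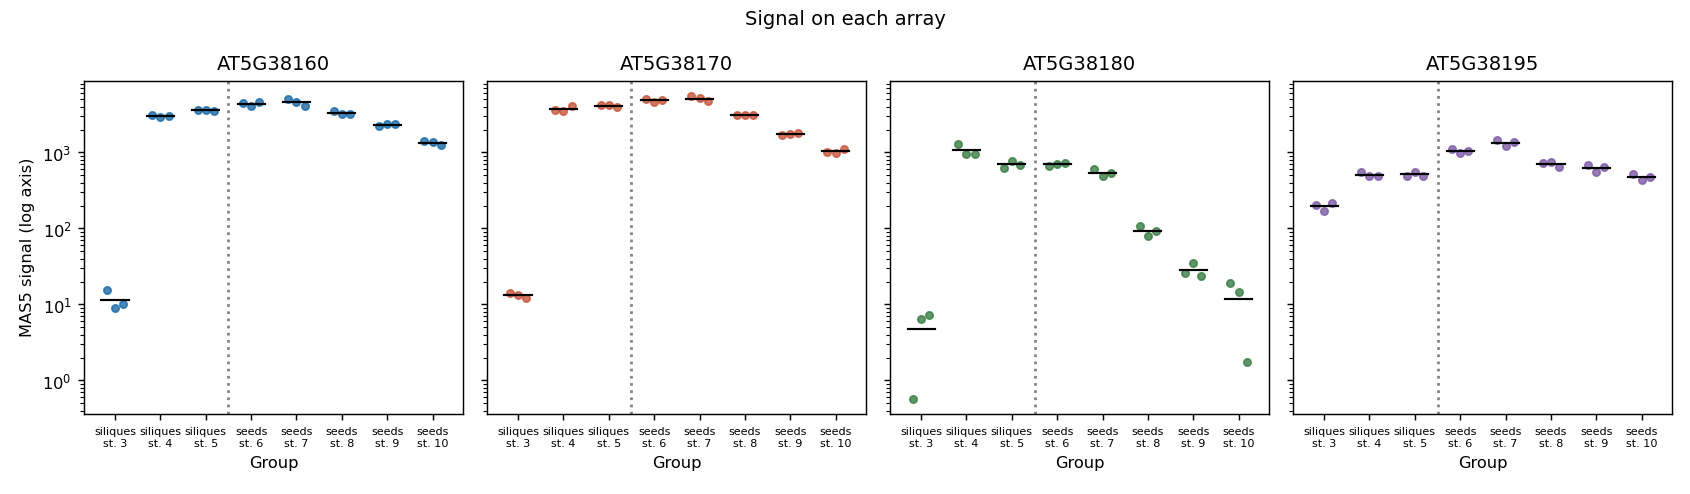
MAS5 signal on a log axis for AT5G38160, AT5G38170, AT5G38180 and the nearby family gene AT5G38195 in the 8 groups. Each point is 1 array and each bar the mean of 3, and the dotted line separates whole siliques from seeds. AT5G38160, AT5G38170 and AT5G38180 lie at 15.4 or lower in siliques stage 3 and at 946 or higher in siliques stage 4, and of these only AT5G38180 overlaps its siliques stage 3 arrays (0.565 to 7.34) again, through 1 array of seeds stage 10 at 1.74, the other 2 reading 14.6 and 19.3.

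Ordered by level, the 8 groups ran differently for the 3 genes. For AT5G38160 the order was seeds stage 7, seeds stage 6, siliques stage 5, seeds stage 8, siliques stage 4, seeds stage 9, seeds stage 10 and siliques stage 3. Only the top pair overlapped, with means that differed by 185. For AT5G38170 siliques stage 4 came before seeds stage 8, and both the top pair and siliques stages 5 and 4 overlapped. For AT5G38180 the order was siliques stage 4, seeds stage 6, siliques stage 5, and then seeds stages 7, 8, 9 and 10 and siliques stage 3. There seeds stage 6 and siliques stage 5 overlapped, with means 6.17 apart, as did seeds stage 10 and siliques stage 3.

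The step from siliques stage 3 to stage 4 held most of the increase. As a percentage of the highest group, the means went from 0.249% to 65.8% for AT5G38160, from 0.260% to 73.7% for AT5G38170 and from 0.450% to 100% for AT5G38180. The stage 3 signals may be background, so no fold is given. On the scale of log2(signal + 6.97), where the offset of 6.97 tempers noise among low signals, the differences were 7.38 ± 0.09 (SE), 7.54 ± 0.07 and 6.55 ± 0.27. They were the 6th, the 4th and the 15th highest of the 16967 probe sets tested. Each SE comes from the limma fit to all 24 arrays, so a gene has the same SE at every step. It does not show the spread of the groups compared. Without an offset the same differences were 8.09, 8.14 and 8.18, and with an offset 4 times larger 6.28, 6.52 and 5.05, so that their order depends on this choice. All 3 met the call used throughout, an adjusted p under 0.05 by limma together with at least a 2-fold difference, as did 9.4% of all tested probe sets in the upward direction. This is the kind of contrast that the genes were chosen on, and nothing is read from the count.

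From siliques stage 4 to stage 5 the genes parted. AT5G38160 and AT5G38170 differed by 0.27 ± 0.09 and 0.14 ± 0.07 on the log2 scale, and AT5G38180 by -0.60 ± 0.27. With quantile normalization AT5G38170 stood at -0.05. None of these differences reached 2-fold. Over both silique steps, from stage 3 to stage 5, the log2 differences were 7.64 ± 0.09, 7.68 ± 0.07 and 5.95 ± 0.27, each past the threshold. The share of all tested probe sets called higher in that contrast was 10.4%.

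The step from whole siliques to freed seeds showed small differences. Between siliques stage 5 and seeds stage 6 AT5G38160 differed by 0.27 ± 0.09, AT5G38170 by 0.22 ± 0.07 and AT5G38180 by 0.02 ± 0.27, all under 2-fold. With quantile normalization they stood at -0.05, -0.11 and 0.00, so no direction is given. Stage and material changed together in this step and cannot be told apart. Between seeds stages 6 and 7 the differences were 0.06 ± 0.09, 0.08 ± 0.07 and -0.37 ± 0.27, and the first was -0.09 with quantile normalization.

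From seeds stage 7 on every gene was lower at each step, by different amounts. At the step to stage 8 the log2 difference was -0.47 ± 0.09 for AT5G38160, -0.71 ± 0.07 for AT5G38170 and -2.46 ± 0.27 for AT5G38180. AT5G38180 was the only one of the 3 called, where 11.2% of all tested probe sets were called lower, and it ranked 100th from the lowest of 16967. With quantile normalization AT5G38170 also met the call, at -1.18. AT5G38160 went as low as -0.95 among the alternative settings, without a call. At the step to stage 9 the differences were -0.50 ± 0.09, -0.84 ± 0.07 and -1.50 ± 0.27, with AT5G38180 called and 2.61% of tested probe sets called lower. Without an offset AT5G38180 stood at -1.72 and was not called.

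At the last step, from seeds stage 9 to stage 10, the differences were -0.81 ± 0.09, -0.75 ± 0.07 and -1.04 ± 0.27. For AT5G38180 this SE, shared by all steps, does not show the wide spread within seeds stage 10 (signal 11.9 ± 9.11, SD, n = 3). AT5G38180 was called, as were 0.937% of tested probe sets downward. That call rests on single arrays of low signal. It was lost without seeds stage 10 replicate D, at -0.56, and without seeds stage 9 replicate B, at -0.91. It was lost too without an offset (-1.83) and with an offset 4 times larger (-0.52). Over the seed stages as a whole, stage 10 against stage 6, the differences were -1.72 ± 0.09, -2.22 ± 0.07 and -5.38 ± 0.27. All 3 met the threshold, beside 19.7% of all tested probe sets called lower, and AT5G38180 was the 17th lowest of 16967. With an offset 4 times larger AT5G38180 stood at -4.22, and without an offset at -6.47.

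**Figure D2:**
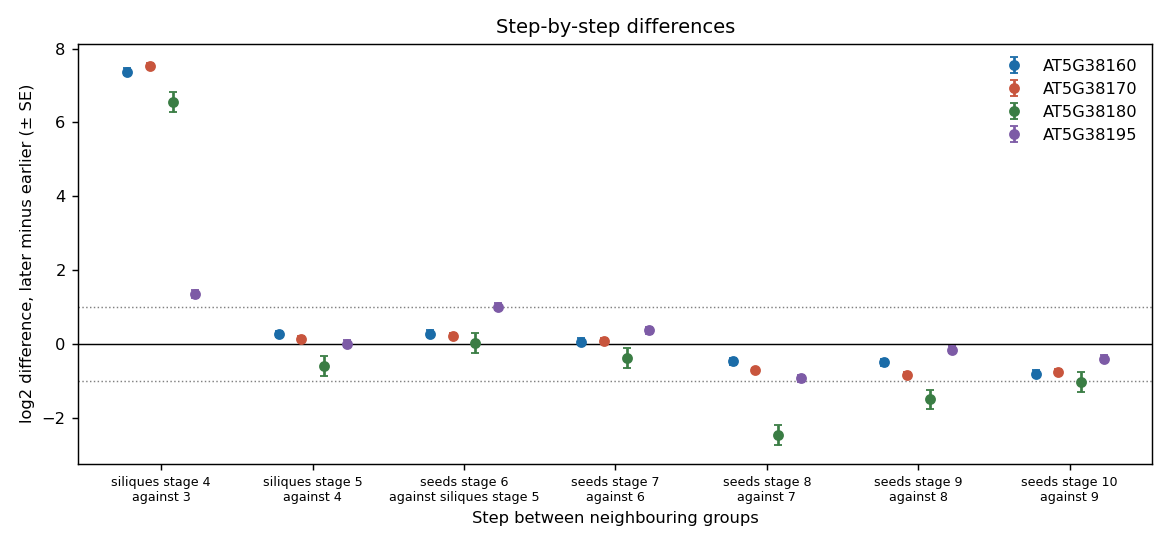
Difference in log2(signal + 6.97) between neighbouring groups, later minus earlier, with its SE, for AT5G38160, AT5G38170, AT5G38180 and AT5G38195. The SE comes from the fit to all arrays and is the same for a gene at every step. The dotted lines mark a 2-fold difference. AT5G38160, AT5G38170 and AT5G38180 lie between 6.55 and 7.54 at the first step, and AT5G38180 lies lowest at -2.46 in seeds stage 8 against 7.

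Set against each other within the same array, AT5G38160 and AT5G38170 differed little between seeds stages 6 and 7 and more in siliques stage 4 and from seeds stage 8 on, in opposite directions. The log2 difference between them, taken relative to its mean in seeds stage 6, was -0.05 ± 0.03 (SD, n = 3) in siliques stage 5 and -0.03 ± 0.04 in seeds stage 7. It was 0.21 ± 0.08 in stage 8, 0.55 ± 0.04 in stage 9 and 0.50 ± 0.17 in stage 10. All arrays of seeds stages 8 to 10, which ranged from 0.16 to 0.60, lay above all arrays of seeds stages 6 and 7, which ranged from -0.05 to 0.05. AT5G38170 thus lost proportionally more signal than AT5G38160 late in the series. In siliques stage 4 the difference was -0.18 ± 0.11, with all 3 arrays between -0.30 and -0.10 and so below those of seeds stages 6 and 7. This divergence was noticed in the values and was not tested.

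AT5G38180 moved away from AT5G38160 over the whole course. Their difference relative to seeds stage 6 was -1.12 ± 0.24 (SD, n = 3) for siliques stage 4, 0.43 ± 0.14 by seeds stage 7, 2.42 ± 0.16 by stage 8 and 3.43 ± 0.22 by stage 9. In seeds stage 10 it was 3.66 ± 0.76, where the low signals of AT5G38180 widen the range to between 3.10 and 4.52.

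**Figure D3:**
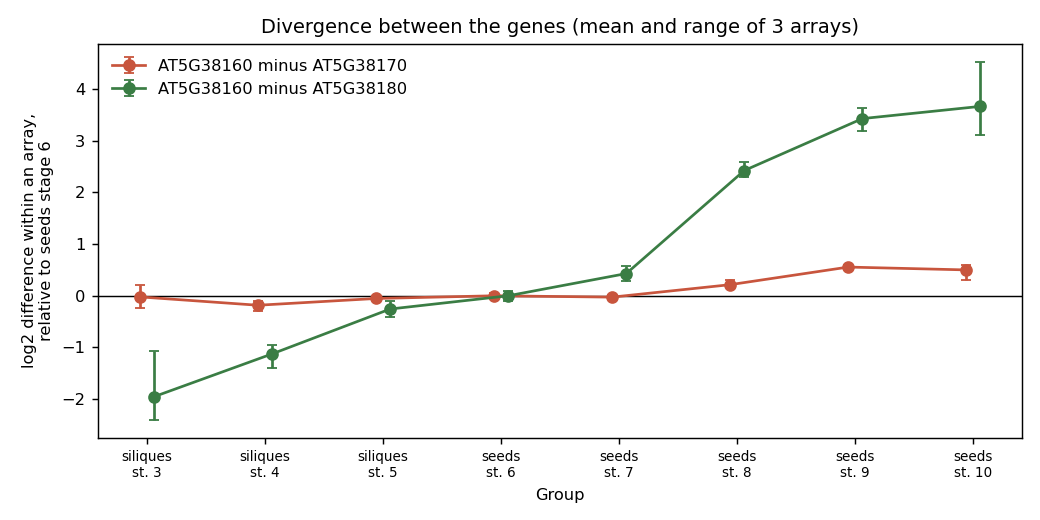
Within-array log2 difference between AT5G38160 and each of AT5G38170 and AT5G38180, relative to the mean of seeds stage 6, for the 8 groups. Points are means of 3 arrays and bars their lowest and highest array. Against AT5G38170 the difference is -0.18 in siliques stage 4, near zero in seeds stages 6 and 7, and 0.55 in stage 9, and against AT5G38180 it runs from -1.12 in siliques stage 4 to 3.43 in seeds stage 9.

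Of the 12 annotated genes nearest to the tandem, 6 on each side, 4 were read by an own probe set and 3 of those passed the filter on low signals. AT5G38195, the family gene that follows AT5G38180 in the gene order, shared the timing in part. Its signal was 198 ± 26.0 (SD, n = 3) in siliques stage 3 and 513 in siliques stage 4, a rise of 1.35 ± 0.10 (SE) on the log2 scale with adjusted p = 8.7e-12 by limma. It was highest in seeds stage 7, at 1352, and stood at 477 in seeds stage 10. From stage 6 to stage 10 it fell by 1.12 ± 0.10, with adjusted p = 1.3e-10. Unlike AT5G38160, AT5G38170 and AT5G38180, it was already well above the low signals in siliques stage 3.

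The other neighbours did not share the pattern. The histone chaperone gene ASF1B (AT5G38110) ranged in group means from 37.4 to 74.5 and met the call in none of the 9 comparisons. 4CL8 (AT5G38120), annotated as a relative of 4-coumarate ligases, ranged from 11.2 in siliques stage 5 to 36.7 in seeds stage 9, also without a call. AT5G38130 did not pass the filter, with group means of 26.4 in siliques stage 3 and at most 10.4 in every other group.

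A list of 47 other genes of the superfamily, 2S albumins included, written from general knowledge, served for comparison. The array read 18 of these with an own probe set, and 10 passed the filter. No gene of a 2S albumin storage protein was among the 18, so the comparison does not cover them. The other 8 had no group mean above 17.8. The 10 tested genes, AT5G38195 among them, were highest at scattered stages. AT1G48750, AT3G18280 and AT5G05960 were highest in siliques stage 3, AT1G66850 and AT2G45180 in siliques stage 5, AT1G62500 and AT5G38195 in seeds stage 7, AT2G18370 in seeds stage 8, and AT1G62510 and AT4G22470 in seeds stage 9. The counts below concern only genes that passed the filter, and the named calls had limma adjusted p between 5.7e-25 and 2e-04.

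At the step where AT5G38160, AT5G38170 and AT5G38180 came up, from siliques stage 3 to stage 4, 4 of the 10 family genes rose and 3 fell, beside 9.4% and 9.46% of all tested probe sets. The log2 difference was 5.48 ± 0.11 (SE) for AT1G62510 and 4.09 ± 0.10 for AT1G62500. It was -2.12 ± 0.08 for AT1G48750 and -1.60 ± 0.27 for AT3G18280. The median difference of the 10 was -0.41, against -0.02 over all probe sets. From stage 4 to 5 AT1G62500 rose by 1.81 and AT1G66850 by 1.58, and the other 8 were not called, where the background was 1.89% higher and 1.44% lower. Over both steps 4 rose, led by AT1G62510 at 6.05 and AT1G62500 at 5.89, and 4 fell, led by AT1G48750 at -2.74 and AT3G18280 at -2.55. The background there was 10.4% higher and 10.9% lower.

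Across the change from siliques to seeds, where AT5G38160, AT5G38170 and AT5G38180 differed by under 2-fold, 6 of the 10 family genes fell. The log2 difference was -5.58 ± 0.25 for AT2G45180 and -4.06 ± 0.11 for AT1G62510. AT5G38195 rose by 1.01, a call lost at 0.98 with an offset 4 times larger and at 0.97 to 0.99 without siliques stage 5 replicate D or F or seeds stage 6 replicate A. The median difference of the 10 was -1.28, against 0.06 over all probe sets, of which 4.07% were called higher and 7.56% lower. With the larger offset 4 in place of 7 family genes were called.

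In the seeds AT2G18370, a nonspecific lipid transfer protein gene, rose by 4.90 ± 0.14 from stage 6 to 7 and AT1G62510 by 1.71, with 2.43% of probe sets called higher and 1.07% lower. At the step to stage 8 3 family genes rose, among them AT1G62510 by 4.74 and AT1G48750 by 2.63, and AT1G62500 fell by 1.17, with 8.06% and 11.2% in the background. From stage 8 to 9 AT4G22470 rose by 1.47 (1.06% higher and 2.61% lower overall), while without seeds stage 8 replicate B or C, or stage 9 replicate A or B, 2 family genes were called. From stage 9 to 10 AT1G62500 fell by 1.35 (0.778% higher and 0.937% lower). Over stages 6 to 10 4 family genes rose, AT1G62510 by 6.57 and AT2G18370 by 5.41 in front, and 2 fell, AT1G62500 (-3.48) and AT5G38195, with 14.1% and 19.7% called in all. The family medians at these comparisons lay between -0.23 and 0.24, and those of all probe sets between -0.05 and 0.03.

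**Figure D4:**
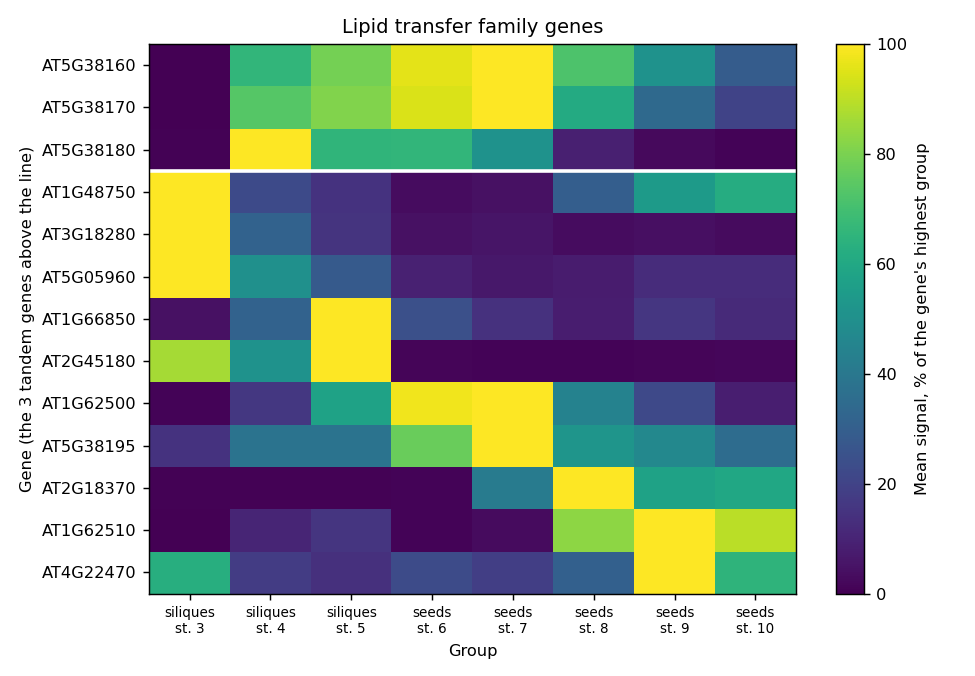
Mean signal in each group as a percentage of the gene's own highest group, for AT5G38160, AT5G38170 and AT5G38180 above the white line and the 10 tested family genes below it. AT5G38160 and AT5G38170 are at 100% in seeds stage 7, as are AT1G62500 and AT5G38195, and AT5G38180 in siliques stage 4, where no gene below the line has its highest group.

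The genes most like AT5G38160 and AT5G38170 in pattern were largely the same. Likeness was measured as Pearson's r of log2 signals over the 24 arrays, among 9310 other tested genes, as a description with no test, since the points share groups and arrays. For AT5G38160 the 5 highest were OLEO3 (r = 0.994), which encodes an oleosin of the oil body coat, AT5G38170 (0.994), AT2G34700 (0.992), AT1G04660 (0.988) and AT1G60970 (0.984). For AT5G38170 they were AT5G38160 (0.994), AT2G34700 (0.991), OLEO3 (0.991), AT1G04660 (0.989) and AT1G60970 (0.983), so that 4 of the 5 were shared. OLEO3 went from 20.5 in siliques stage 3 to 4552 by seeds stage 6 and 1370 by stage 10.

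AT5G38180 shared none of its 5 closest genes with either neighbour. They were AT4G33600 (r = 0.978), the peroxidase gene AT5G15180 (0.978), AT2G22660 (0.973) and the GDSL lipase genes AT1G71250 (0.971) and AT1G28590 (0.970). AT5G15180 read 3.86 in siliques stage 3, 456 in siliques stage 4, its highest group, 43.4 in seeds stage 8 and 17.0 in seeds stage 10. The r between AT5G38180 and AT5G38160 was 0.684, and AT5G38160 ranked 655th among the genes closest to AT5G38180.

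These rankings lean on the first step. Over the 21 arrays that leave out siliques stage 3, an alternative chosen after seeing the data, 1 of the 5 genes remained for AT5G38160, namely AT5G38170, none for AT5G38170 and 1 for AT5G38180, namely AT1G71250. The r between AT5G38160 and AT5G38170 was then 0.969, that between AT5G38170 and AT5G38180 0.912 and that between AT5G38160 and AT5G38180 0.825. Ranks did not follow r alike. Among the genes closest to AT5G38180, AT5G38170 was then 676th (431st over the 24 arrays) and AT5G38160 1504th (655th). AT5G38180 was 161st among those closest to AT5G38170 (285th before) and 327th among those closest to AT5G38160 (470th before). By rank correlation (Spearman) over the 24 arrays 2, 1 and 2 of the 5 genes remained. On that measure AT1G62500, a family gene on chromosome 1 singled out after its values were seen, ranked 5th for AT5G38160, at 0.966. For AT5G38170 it ranked 65th, at 0.914. By Pearson's r over the 24 arrays it ranked 33rd for AT5G38160, at 0.921. In the other direction AT1G48750, a family gene singled out after its values were seen, had the lowest Spearman rho with AT5G38170 of all 9310 genes, at -0.97. Its Pearson r was -0.706, and its signal went from 1305 in siliques stage 3 to 45.7 by seeds stage 6 and 807 by stage 10.

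**Figure D5:**
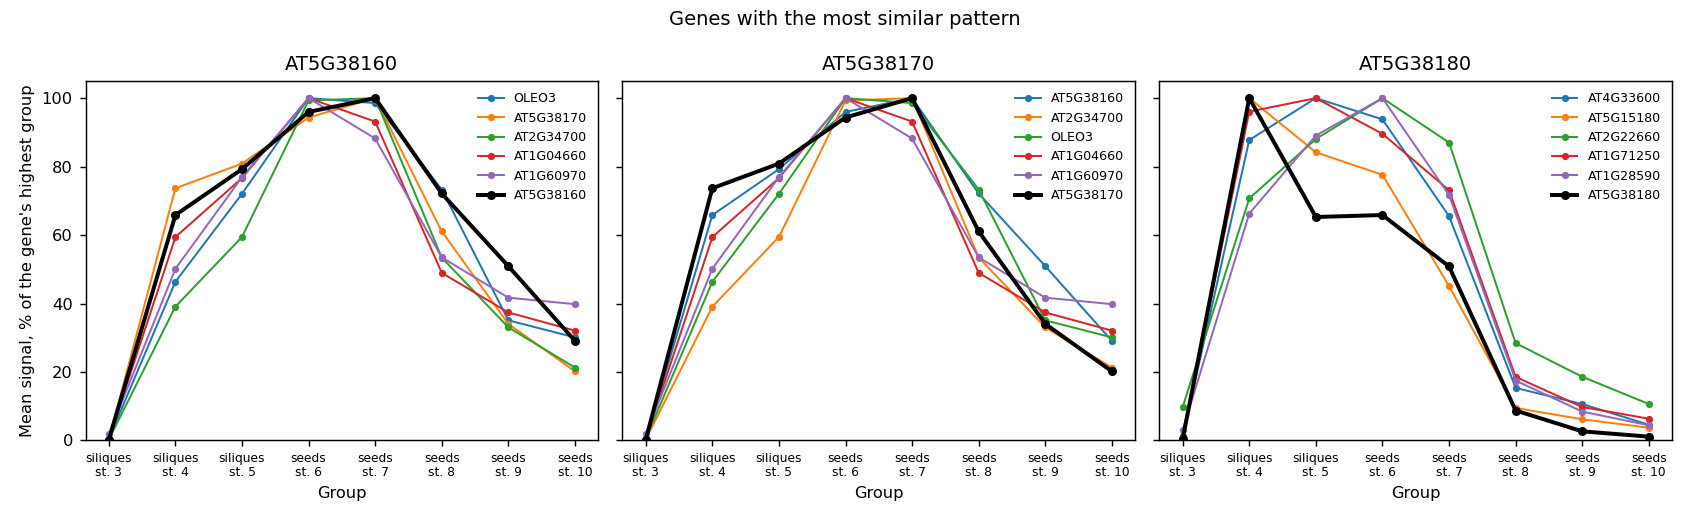
Mean signal by group as a percentage of the gene's highest group for AT5G38160, AT5G38170 and AT5G38180 (black) and the 5 genes with the highest Pearson r to each (colours). The left and middle panels share 4 genes at r of 0.983 or more and peak in seeds stages 6 and 7, and the right panel holds 5 others, each with its highest group at siliques stage 4, siliques stage 5 or seeds stage 6.

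Some features of the arrays moved along with these results, and their part in them was not tested. Of 8 embryo reserve genes 3 had a probe set of their own (PAP85, AT1G03890 and OLEO3). Their summed signal was 27.9 to 40.2 in siliques stage 3, 2387 to 2415 at stage 4, still within siliques, and by seeds stage 7 it was 12687 to 14237. It reached 18833 to 22098 by seeds stage 10, where AT5G38160, AT5G38170 and AT5G38180 were lower. PAP85 and AT1G03890 carried that sum, at 11060 and 8244 in seeds stage 10, whereas OLEO3 was lower there (1370) than in seeds stage 6 (4552), as the tandem genes were. Of 9 seed coat genes 4 were read (BAN, DFR, AT3G50990 and ARA12). Their sum was highest in siliques stage 4, at 4969 to 5214, after 3365 to 3439 in stage 3, and came down to 364 to 470 by seeds stage 10. Between siliques stages 3 and 4 ARA12 went from 756 to 2061 and DFR from 866 to 1032, while BAN read 1777 and 1775. AT3G50990 read 2.35, then 188, and by seeds stage 8 it read 7.99.

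Of 9 endosperm genes 4 were read (MPC, AGL62, IKU2 and AT4G36590), with sums of 117 to 145 in siliques stage 3, 31.3 to 45.4 at stage 4 and 18.4 to 70.8 in the groups after that. Of 8 silique wall genes 3 were read, with sums of 316 to 406 in siliques and 141 to 235 in seeds. ALC, a regulator of fruit opening, read 161 in siliques stage 5 and 36.6 in seeds stage 6, whereas YAB3, also on that list, was higher in seeds (112 at stage 6) than in siliques (59.3 at stage 5). The median signal of an array ranged from 32.6 to 42.4, the actin 3'/5' ratio from 2.02 to 4.36 with its highest values in siliques stage 3, and the 25S ribosomal RNA control from 23.5 to 4717. That control varied widely within groups, reading 2074, 213 and 68.8 in seeds stage 6 and 4717, 119 and 4242 in seeds stage 8.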

How the data were processed

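The samples were total RNA, the label was biotin, and each sample had 1 array. The authors deposited linear signal intensities, for which the submitters' processing notes name MAS5 (version not given in the sources used here); the mean of each array's signals between its 2nd and 98th percentiles was close to 100. No detection calls or sequences were used here, so a low signal may be background. Precision is limited by the number of arrays. Of 22810 probe sets, 13513 had 1 gene, 503 several and 8794 none, and 13436 of the former matched a locus of the gene table (TAIR10.1).

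Groups follow the tissue label, and replicates the letter of the title. The 64 control probe sets were left out, and probe sets above the 40th percentile of their array on at least 3 arrays were tested (16967), as log2(signal + 6.97), where the offset is the arrays' median 20th percentile. limma 3.58.1 in R 4.3.3 (data.table, version 1.17.8) fitted 1 mean per group to all 24 arrays with a variance trend, with Benjamini-Hochberg adjustment over all tested probe sets, and was tested on simulated data. Figures used matplotlib 3.10.9.

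The genes, lists and rules were chosen with earlier results of these data known. Named genes are AT5G38160, AT5G38170 and AT5G38180, single-gene neighbours within 6 annotated genes, the 2 highest and 2 lowest called family genes per comparison, and the 5 most correlated genes. The reference tables hold no product text, so the family list was the one written by hand for that case. Same-lettered arrays did not deviate together (r of -0.05 to 0.10), so letters do not pair the samples. Alternatives were the offset, the filter, the normalization, the letter as a block and leaving out each array.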

Additional observations from a re-analysis of the deposited data

How the results depend on the processing

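Over 27 differences of AT5G38160, AT5G38170 and AT5G38180 in 9 comparisons, 335 of 342 alternative values left the call as it was. The call was lost in 6 and gained in 1, and 0 called differences changed direction. Some small differences without a call did change sign. That of AT5G38160 in seeds stage 7 against 6 went from 0.06 to as low as -0.09. All 6 losses were of AT5G38180 in seeds stage 9 against 8 and 10 against 9, and the gain was of AT5G38170 under quantile normalization. With the offset 4 times larger fewer probe sets were called: 2112 in siliques stage 4 against 3 (3200 before), 312 in 5 against 4 (564), 1200 in seeds stage 6 against siliques stage 5 (1972), 332 in seeds stage 7 against 6 (594), 2039 in 8 against 7 (3275), 232 in 9 against 8 (623) and 92 in 10 against 9 (291), and 4 family genes instead of 7 in seeds stage 6 against siliques stage 5. In seeds stage 7 against 6 higher calls then made up 81.9% instead of 69.4%. With no offset 1020 and 625 were called in the last 2 steps, 2 family genes instead of 1 in 9 against 8, and 0 of the 3 tandem genes instead of 1 in both steps. With the larger offset, too, 0 tandem genes were called in 10 against 9. Quantile normalization called 2 tandem genes in 8 against 7 instead of 1. Leaving out 1 array gave 1 to 2 family genes in 9 against 8 and 0 to 1 tandem genes in 10 against 9. No filter and centring on the 75th percentile moved the median of all probe sets in seeds stage 10 against 6 from 0.02 to 0.13. With the title letter as a replicate block 0 tandem genes were called in 10 against 9, AT5G38180 standing at -0.54, and the other counts of tandem genes did not change. The letters are shared by at least 2 arrays in 6 of the 9 comparisons. The causes were not tested.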
